A study of Mus musculus with 66 samples.

Results

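The 207 vomeronasal type 1 receptor (Vmn1r) genes were examined in H3K9me3 and H3K36me3 ChIP-seq of mouse prefrontal cortex (PFC). They were chosen by name, as the protein-coding genes on chromosomes 1 to 19 of the GENCODE annotation of GRCm38 whose symbol is Vmn1r followed by digits, out of 20807 protein-coding genes there. Every gene was given a window of the gene body and 5 kb on either side, and the listed islands of both marks were laid over that window. An island is a stretch of 200-bp windows in which the caller SICER found more ChIP reads than its background. The symbol Vmn1r216 belongs to a pair of annotated genes, which were kept apart. Of the members, 103 are on chromosome 7, 51 on chromosome 6, 35 on chromosome 13 and 14 on chromosome 17.

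Vmn1r genes encode G protein-coupled receptors of sensory neurons in the vomeronasal organ, where they detect pheromones and other small social cues. Each such neuron expresses very few of the genes and keeps the rest silent. The signal passes through the G protein subunit encoded by Gnai2 and the ion channel encoded by Trpc2. The genes lie in tandem arrays made by repeated duplication, and their coding sequence is usually a single exon. The PFC is not known as a place where these receptors act. H3K9me3 is the histone mark of constitutive heterochromatin and is common over silent gene arrays and transposable elements, whereas H3K36me3 is laid down over the bodies of transcribed genes.

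The mice were adolescent DBA/2J males and females. The treated groups received 4 g/kg ethanol by oral gavage as a 25% w/v solution, and the control groups received water. Dosing was intermittent, with pairs of dosing days separated by days without a dose. It began on postnatal day (PND) 29 and ended on PND 42, and the PFC was collected 24 h later. A pool combined 3 same-sex mice of 1 treatment, and each pool was immunoprecipitated with both antibodies. There were 5 pools of water-treated males, 6 of ethanol-treated males, 5 of water-treated females and 6 of ethanol-treated females, which gave 22 libraries per mark and 44 in all. PFC tissue is a mixture of neurons, glia and vascular cells, so a change in the mix of cells and a change within cells cannot be told apart.

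The libraries differed in the number of islands and in the reads inside them. The H3K9me3 libraries held 41364 to 72481 islands and 5.73 to 14.2 M island reads, and the H3K36me3 libraries held 19618 to 61911 islands and 1.70 to 4.803 M island reads. The lists were not cut at a false discovery rate (FDR). Islands with an FDR above 0.01 made up 11.9% to 69.0% of an H3K9me3 list, with the highest share in female water 2, and 26.8% to 92.2% of an H3K36me3 list. The cortical neuron genes, which are transcribed in this tissue, had H3K36me3 islands over a median of 0.656% of their window length, and none of these 10 genes had one in all 22 libraries. The 9 glial genes had a median of 1.30% and likewise none in all 22 libraries. An H3K36me3 island is therefore read below as a position with listed reads and not as a sign of transcription.

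Promoter sequences show how alike members of an array can be. The RefSeq promoter table of GRCm38.p6, which holds 250 bases before and 50 bases after each gene start, had an entry for 183 of the 207 members. In each promoter printed below, the 50 bases after that start begin with ATG, the letters of a start codon. These stretches may therefore lie at the start of the coding sequence, and promoter is used here only as the name of the entry. All 183 were identical to the genome sequence, but they held just 164 distinct sequences. In 13 groups, 32 members shared a promoter with another member base for base, and the largest group held 5 genes. The first sequence is that of Vmn1r111, Vmn1r118, Vmn1r131, Vmn1r138 and Vmn1r166, read at chr7:20703167-20703466 on the minus strand. The second is that of Vmn1r135 and Vmn1r163, read at chr7:21832101-21832400 on the plus strand. The third is that of Vmn1r130, Vmn1r137 and Vmn1r165, read at chr7:21511530-21511829 on the plus strand. Capitals mark the 23 positions at which the 3 sequences are not all the same.
Vmn1r111 promoter: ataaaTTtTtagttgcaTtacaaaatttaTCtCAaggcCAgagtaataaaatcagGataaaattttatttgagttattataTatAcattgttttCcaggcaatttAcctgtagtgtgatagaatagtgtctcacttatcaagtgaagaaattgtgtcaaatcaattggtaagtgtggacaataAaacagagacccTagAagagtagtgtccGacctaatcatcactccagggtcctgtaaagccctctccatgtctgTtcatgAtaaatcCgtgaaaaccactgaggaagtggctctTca
Vmn1r135 promoter: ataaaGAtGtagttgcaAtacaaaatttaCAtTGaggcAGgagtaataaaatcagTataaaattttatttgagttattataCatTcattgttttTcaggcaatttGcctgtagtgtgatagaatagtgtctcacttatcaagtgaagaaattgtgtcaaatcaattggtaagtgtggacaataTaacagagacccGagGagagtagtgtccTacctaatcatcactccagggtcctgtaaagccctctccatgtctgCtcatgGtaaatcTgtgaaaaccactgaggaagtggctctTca
Vmn1r130 promoter: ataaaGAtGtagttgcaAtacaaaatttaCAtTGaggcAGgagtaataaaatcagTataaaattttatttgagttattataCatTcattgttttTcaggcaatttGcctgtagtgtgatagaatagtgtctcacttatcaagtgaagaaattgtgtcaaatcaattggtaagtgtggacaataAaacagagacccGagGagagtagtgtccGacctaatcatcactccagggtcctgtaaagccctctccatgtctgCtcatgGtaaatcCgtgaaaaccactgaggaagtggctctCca
The first differed from the second at 22 positions and from the third at 20 positions, and the other pair differed at 4 positions. All 10 genes that carry these promoters lie in the same array on chromosome 7. Of the 10, Vmn1r135 and Vmn1r163 had islands of both marks in all 22 libraries. The other 8 had no island of either mark in any library.

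The fourth promoter is that of Vmn1r77 (chr7:12041049-12041348, plus strand), the member with the highest H3K9me3 level among those whose promoter held the letters TATAAA, shown in capitals.
Vmn1r77 promoter: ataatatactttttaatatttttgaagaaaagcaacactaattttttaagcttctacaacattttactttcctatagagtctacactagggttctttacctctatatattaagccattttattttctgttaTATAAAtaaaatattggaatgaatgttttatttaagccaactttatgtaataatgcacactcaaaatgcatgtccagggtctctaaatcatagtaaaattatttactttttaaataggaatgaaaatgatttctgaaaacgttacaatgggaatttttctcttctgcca
TATAAA was found on either strand in 81 of the 183 member promoters (44.3%), against 13.6% of all 32851 promoters of the same length, 23.1% of the 117 promoters of Vmn2r genes and 41.2% of the 944 promoters of Olfr genes. The homeodomain core TAATTA, the kind of site bound by Lhx2, was found in 15 member promoters (8.20%), in 5.29% of all promoters, in 17.1% of Vmn2r promoters and in 18.6% of Olfr promoters. An EBF-type palindrome, the kind of site of Olf1/EBF factors, was found in 0 member promoters and in 0.904% of all promoters, in 0% of Vmn2r promoters and in 0.530% of Olfr promoters. These are matches of letters on both strands and not measured binding. In 117 of 182 members compared the RefSeq start lay over 1000 bp downstream of the GENCODE start, so many of these stretches may not lie at a start of transcription. Median GC of the windows was 38.7% for the members, 37.2% for Vmn2r, 37.6% for Olfr and 44.9% for all protein-coding genes. The part of position and of GC in the motif shares was not tested.

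The following stretches show what lay under the most constant H3K9me3 islands. Each is 300 bases of GRCm38, plus strand, inside a stretch that H3K9me3 islands covered in all 22 libraries. The one near Vmn1r235 (chr17:21254651-21254950) lies in a core of 1600 bp centred at -1611 bp from the gene start, of which 35.3% was masked as repeat, and H3K36me3 islands covered its bases in 19 to 21 libraries. Its capitals are the 149 bases that are not repeat-masked.
Vmn1r235 core: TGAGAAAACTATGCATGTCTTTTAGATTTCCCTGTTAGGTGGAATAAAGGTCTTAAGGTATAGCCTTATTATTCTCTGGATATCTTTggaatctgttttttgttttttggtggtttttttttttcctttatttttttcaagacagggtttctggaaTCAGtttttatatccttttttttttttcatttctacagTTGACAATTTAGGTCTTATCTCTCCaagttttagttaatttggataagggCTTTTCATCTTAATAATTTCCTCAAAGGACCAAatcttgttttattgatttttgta
The other pair share a run of repeat sequence that was found in 7 of the 207 member windows. The stretch near Vmn1r135 (chr7:21828651-21828950) lies in a core of 1200 bp centred at -3551 bp from the gene start, and 100% of that core was repeat-masked. The stretch near Vmn1r60 (chr7:5535424-5535723) lies in a core of 2455 bp beyond the 3' end of the gene, centred 11744 bp downstream of its start, and 99.8% of that core was repeat-masked. H3K36me3 islands covered the bases of the first in 21 to 22 libraries and of the second in 16 to 22. Capitals mark the longest run that both share, of 106 bases.
Vmn1r135 core: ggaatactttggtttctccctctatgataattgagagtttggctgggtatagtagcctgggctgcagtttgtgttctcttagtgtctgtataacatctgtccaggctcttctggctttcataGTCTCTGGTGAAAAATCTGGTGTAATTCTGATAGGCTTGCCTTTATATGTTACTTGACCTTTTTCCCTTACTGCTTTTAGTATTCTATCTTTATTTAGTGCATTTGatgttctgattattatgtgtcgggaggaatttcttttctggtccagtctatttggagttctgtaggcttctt
Vmn1r60 core: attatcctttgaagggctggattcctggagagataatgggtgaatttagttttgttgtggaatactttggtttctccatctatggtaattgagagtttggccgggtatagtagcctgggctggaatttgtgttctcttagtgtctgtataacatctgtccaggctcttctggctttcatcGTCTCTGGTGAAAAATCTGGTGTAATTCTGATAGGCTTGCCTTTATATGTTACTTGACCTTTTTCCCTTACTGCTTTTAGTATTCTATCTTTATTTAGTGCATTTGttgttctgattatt
This run was found 1129 times on the 7 chromosomes that carry members, and 7 member windows held a copy.

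H3K9me3 islands lay over 93 of the 207 members (44.9%) in all 22 libraries, over 66 in some libraries and over 48 (23.2%) in none. Of all 20807 protein-coding genes, 13.4% had an island in all 22 libraries and 60.1% had none. Islands covered a median of 19.8% of the summed window length of the members, with a range of 12.4% to 26.8% over libraries, against 2.93% for all protein-coding genes. ChIP reads in those islands were 1.78-fold the scaled input reads (range 1.29 to 2.11 over libraries), against 1.098-fold for all genes. These are ratios of sums over islands called in each library. Per gene with an island in all 22 libraries, the median ratio was 1.70-fold for the members and 1.45-fold for all such genes. The count of 93 depended on the islands and the window: it was 50 with islands at an FDR of at most 0.01, 22 at 1e-05, 29 over gene bodies alone and 145 with 20 kb on either side. Leaving out female water 2, the library with the fewest islands, raised the number of members covered in every library from 93 to 99.

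Among chemoreceptor families the Vmn1r genes lay between the others. The 119 Vmn2r genes, which encode the second family of vomeronasal receptors, had a median coverage of 27.2%, and 95 of them (79.8%) had an island in all 22 libraries. The 1087 Olfr genes, which encode the odorant receptors of the main olfactory epithelium, had a median coverage of 12.04%, and 297 of them (27.3%) had an island in all 22 libraries. Vmn2r coverage was above Vmn1r coverage in 22 of 22 libraries, and Vmn1r coverage was above Olfr coverage in 22 of 22 libraries. The share of members with no island in any library, 23.2%, was above that of Olfr (16.2%) and of Vmn2r (0.840%).

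**Figure D1:**
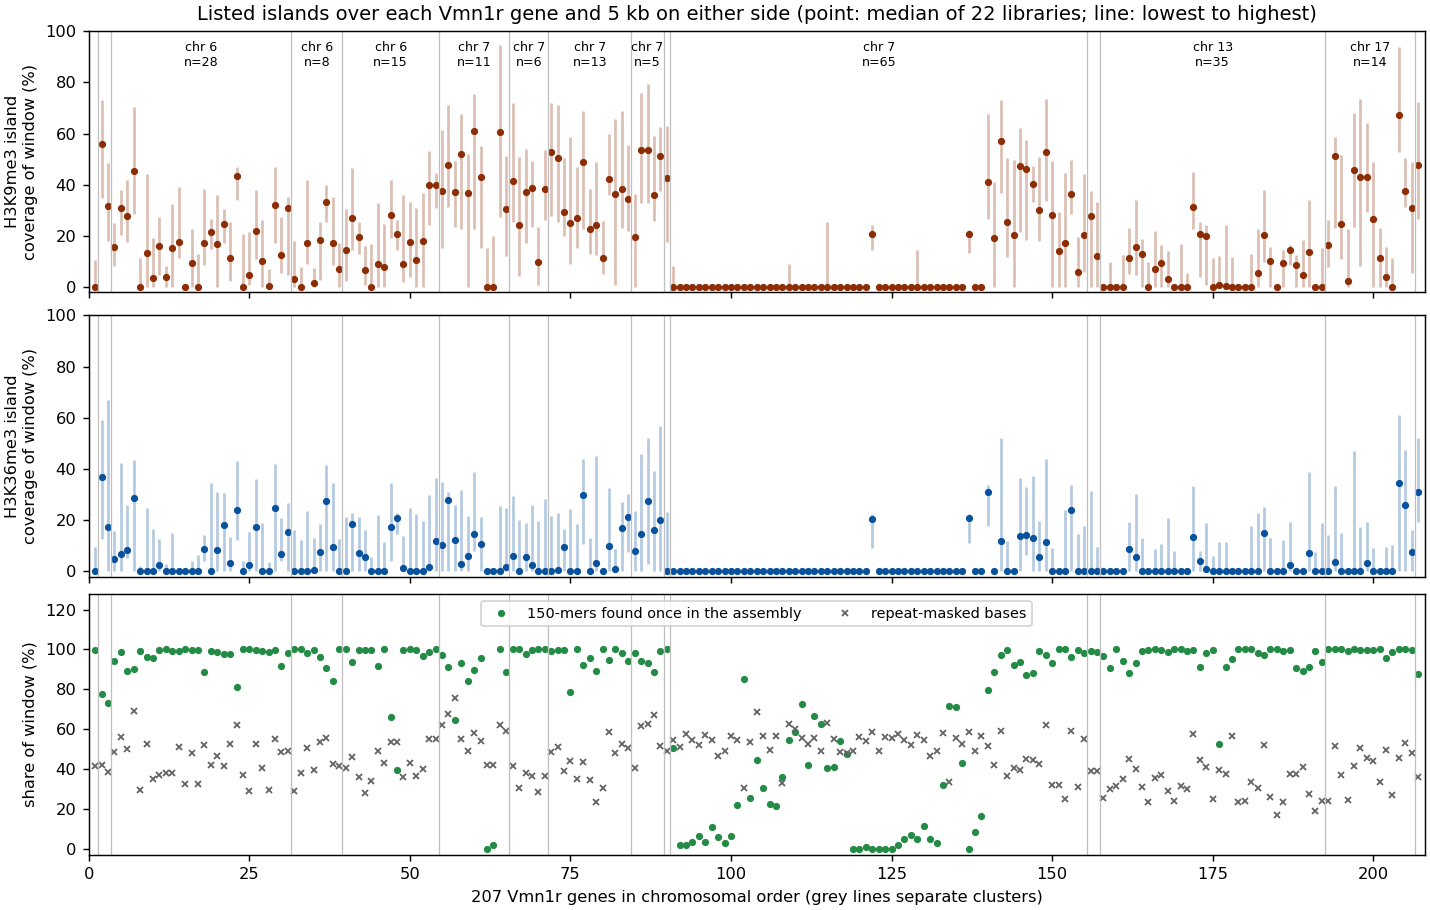
Share of the window of each of the 207 Vmn1r genes under H3K9me3 islands (top) and H3K36me3 islands (middle), in percent, in chromosomal order; points are medians and lines the lowest to highest of 22 libraries. The bottom panel gives the share of 150-base sequences found at a single place in the assembly and of repeat-masked bases; the chromosome 7 array of 65 genes has a long run of windows with no island, which coincides with low uniqueness.

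The members fall into 10 clusters of at least 5 genes, where neighbours less than 500 kb apart were joined, and 7 further members. Among these clusters, H3K9me3 coverage was highest in the arrays on proximal chromosome 7. The 11 genes at chr7:5129291-6011010 had a median window coverage of 39.6% (range over libraries 19.5% to 48.3%), the 6 genes at chr7:10272991-10754364 had 34.5%, the 13 genes at chr7:11664479-12369273 had 35.1% and the 5 genes at chr7:13083313-13220657 had 44.2%. In the array of 13 genes and in the array of 6 genes every member had an island in all 22 libraries. Levels are given below as island ChIP reads per kb of window and per M island reads of the library, as medians over the 22 libraries. Vmn1r60 had the highest H3K9me3 level of the first of these arrays, 3.13, and Vmn1r63 was at 0 there. Vmn1r66 (2.09) and Vmn1r70 (0.610) were the ends of the array of 6, Vmn1r77 (2.68) and Vmn1r80 (0.537) those of the array of 13, and Vmn1r87 (2.81) and Vmn1r85 (1.01) those of the array of 5.

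The largest array, 65 genes at chr7:20099680-24063554, was split. It had islands in all 22 libraries over 12 members and in no library over 40, and a median coverage of 10.2% (range 6.97% to 15.6%). In the figure of the members by position the covered genes stand at its distal end, from about Vmn1r167 onwards, and Vmn1r135 and Vmn1r163 stand alone in the uncovered run. Vmn1r169 had the highest H3K9me3 level of the array, 3.10, and 47 of its members had a median level of 0. The median share of unique 150-base sequences was 36.2% in this array and 89.7% to 100% in the other clusters of at least 5 genes.

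The 14 genes on chromosome 17 (chr17:20414146-21314912) had a median coverage of 29.3%, and 9 of them had an island in all 22 libraries. They ran from Vmn1r235, with the highest level of all members at 3.64, to Vmn1r234 at 0. The clusters of chromosome 6 had lower coverage, 16.9% for the 28 genes at chr6:56924015-58475330, 12.6% for the 8 at chr6:66552180-66810609 and 18.04% for the 15 at chr6:89707540-90271213. Vmn1r23 (2.33), Vmn1r37 (1.56) and Vmn1r53 (2.13) were highest in these, and Vmn1r24, Vmn1r33 and Vmn1r44 had a median of 0. The 35 genes on chromosome 13 (chr13:22084440-23253906) had the lowest window coverage of the 10 clusters, 6.97% (range 4.49% to 10.3%). Over the whole span of the cluster, intergenic sequence included, coverage was 15.9%, above the 10.6% of the large chromosome 7 array. There, 7 members had an island in all 22 libraries and 7 had none in any, although their median unique share was 99.2%. Vmn1r203 was highest on chromosome 13 with a level of 1.49, and Vmn1r223 was among 16 members at a median of 0.

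The ratio of ChIP to scaled input reads ordered the clusters differently from coverage. It was 2.00-fold and 2.02-fold in the chromosome 7 arrays of 6 and 13 genes, 1.93-fold in the array of 11 genes, 1.73-fold in the array of 5 genes, which had the highest coverage, and 1.98-fold in the large array, where few genes had islands. It was 1.44-fold on chromosome 13 and 1.47-fold, 1.44-fold and 1.58-fold in the chromosome 6 clusters. These are ratios of sums over islands called in each library, and they describe only the stretches that were called. Outside the clusters, Vmn1r2 and Vmn1r3 on chromosome 4, Vmn1r238 on chromosome 18 and Vmn1r90 on chromosome 7 had H3K9me3 islands in 22 of 22 libraries. Vmn1r184 had them in 21, Vmn1r185 in 20 and Vmn1r1 on chromosome 1 in 3.

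Vmn1r235 (chr17:21256411-21262881, plus strand) had the highest H3K9me3 level of all members. Its window coverage was 59.9%, 70.9% and 72.1% (lowest, median and highest) in male water pools, 56.3%, 76.1% and 93.9% in male ethanol pools, 53.4%, 66.001% and 86.6% in female water pools and 52.6%, 61.8% and 68.4% in female ethanol pools. The 4 groups overlapped. All 150-base sequences of this window were unique (100%), and 45.6% of its bases were repeat-masked. H3K9me3 reads over its window were 1.44-fold the scaled input, below the 1.78-fold of the members together. H3K36me3 islands were listed over Vmn1r235 in 21 of 22 libraries, with a level of 2.84.

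The next members by H3K9me3 level were Vmn1r2 (chr4:3167320-3173006), Vmn1r238 (chromosome 18), Vmn1r60 (chr7:5539346-5547317) and Vmn1r169 (chr7:23575526-23578849). Vmn1r2 had a level of 3.60 (range 2.78 to 4.88 over the 22 libraries) and a coverage of 56.0%. Vmn1r238 had a level of 3.33 (range 1.70 to 4.49) and a coverage of 47.8%. Vmn1r60 had a level of 3.13 (range 1.504 to 3.81), and Vmn1r169 a level of 3.10 (range 2.13 to 3.96). These ranges overlap one another and that of Vmn1r235 (2.56 to 5.29), so that the order of the highest 5 is not fixed beyond the spread of the libraries.

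At the other end, 5 genes had small islands in every library. Vmn1r25 (chr6:57978299-57980810) had the lowest level among the 93, 0.267 (range 0.0429 to 0.939), with 4.81% of its window covered. Vmn1r43 was at 0.385, Vmn1r49 at 0.484, Vmn1r22 at 0.503 and Vmn1r80 at 0.537. Vmn1r80 had no H3K36me3 island in any library. The 48 members with no H3K9me3 island in any library began, in symbol order, with Vmn1r15, Vmn1r93, Vmn1r95, Vmn1r100 and Vmn1r101. Of the 48, 40 were in the large chromosome 7 array, 7 on chromosome 13 and 1, Vmn1r15, on chromosome 6.

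The islands were unevenly placed within the windows. H3K9me3 islands covered a median of 1.87% (range 0.319% to 3.89%) of the coding exons of the members. They covered 17.6% (9.95% to 25.0%) of introns and untranslated exons, 20.4% (12.8% to 27.7%) of the 5 kb upstream and 25.5% (17.3% to 32.5%) of the 5 kb downstream. The range for coding exons did not overlap those of the other parts. In the 500 bp before the gene start the median was 5.78%. The 133 members with at least 90% unique sequence gave the same order, with 1.59% of coding exons, 17.6% of introns and untranslated exons, 24.8% upstream and 32.4% downstream. Coding exons of Vmn2r (3.30%) and Olfr genes (1.11%) were also sparsely covered. A single member, Vmn1r2, had an H3K9me3 island touching its coding exon in all 22 libraries, and Vmn1r235 had one in 19.

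The RefSeq and GENCODE starts often differ for these genes. Of 182 members compared, 59 had both starts within 250 bp, and in 117 the RefSeq start lay over 1000 bp downstream of the GENCODE start. Of the 183 RefSeq promoters, 166 had no H3K9me3 island in any library, and the 17 others had one in at most 7 of 22 libraries. As these stretches may lie at the start of the coding sequence, which islands rarely covered, the counts may not describe starts of transcription. In the 500 bp before the GENCODE start, 153 of the 207 members had no H3K9me3 island in any library and 22 had one in more than 7 libraries. Vmn1r77 had one there in 21 libraries and an H3K36me3 island in 16. Its RefSeq start, used for the promoter printed above, is 4547 bp downstream of its GENCODE start. For H3K36me3, 178 RefSeq promoters had no island and 5 had one in 1 library. Across the GENCODE start, H3K9me3 coverage fell from 27.9% of bases 4.9 kb upstream to 4.15% in the first 200 bp of the gene and was 16.5% at 4.9 kb downstream. H3K36me3 coverage was 10.9%, 0.966% and 4.99% at the same places, and repeat-masked bases made up 61.1%, 27.4% and 47.4%.

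**Figure D2:**
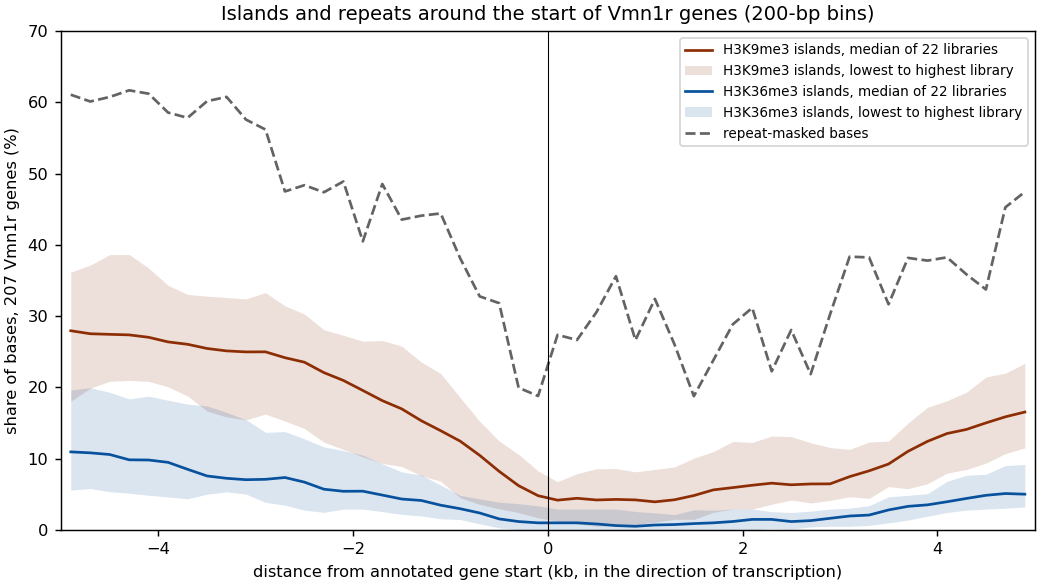
Share of bases of the 207 Vmn1r genes under H3K9me3 and H3K36me3 islands and share of repeat-masked bases, in percent, in 200-bp bins from 5 kb upstream to 5 kb downstream of the gene start, in the direction of transcription; lines are medians of 22 libraries and bands the lowest to highest. All 3 curves are low around the start, where H3K9me3 coverage is 4.15% against 27.9% at 4.9 kb upstream.

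Repeats and islands lay together. The members' windows are rich in repeats, with a median of 45.6% repeat-masked bases against 26.0% for all protein-coding genes. Under H3K9me3 islands 74.6% of bases were repeat-masked (range 69.2% to 82.0% over libraries), and outside them 36.7% (35.2% to 39.1%), so the ranges did not overlap. Under H3K36me3 islands the share was 84.4% (78.2% to 88.3%) and outside them 42.2% (40.1% to 43.2%). The 4.78% of the length that H3K9me3 islands covered in all 22 libraries was 90.2% repeat-masked, the 36.6% covered in some libraries was 57.5%, and the 58.7% never covered was 32.7%. The length covered in no library thus held the fewest repeats, and the length covered in every library held the most. The core upstream of Vmn1r235, printed above, was an exception with 35.3%.

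Across members, coverage went with repeats where the sequence was unique. Among the 133 members with at least 90% unique 150-base sequences, the share of repeat-masked bases and median H3K9me3 coverage had a Spearman rho of 0.70. Over all 207 members it was 0.18. Genes of the same array share libraries, neighbours and base composition, and overlapping windows share islands, so these values describe the members and carry no test. The part of repeat content in the coverage was not tested.

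**Figure D3:**
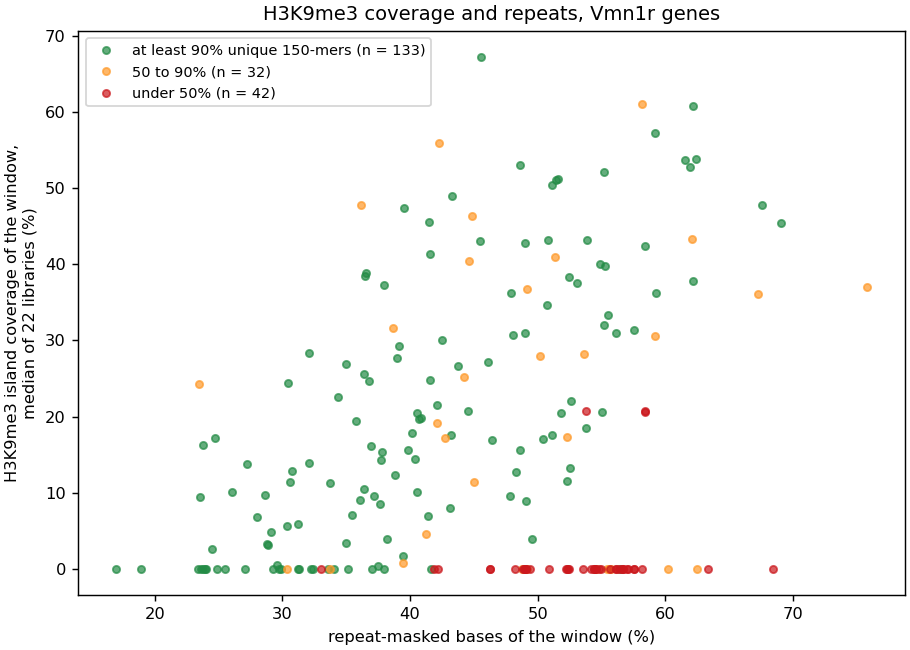
Median H3K9me3 island coverage over 22 libraries against the share of repeat-masked bases, both in percent of the window, with 1 point for each of the 207 Vmn1r genes, coloured by the share of 150-base sequences found at a single place in the assembly. Genes with at least 90% unique sequence rise with repeat content (rho 0.70, n = 133), and genes with under 50% unique sequence lie almost all at 0.

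The members without islands were mostly those with little unique sequence. The reads were 150 bases long, and the methods for H3K9me3 state that those mapping to a single place were kept. Of the 25 members with under 10% unique 150-base sequences, 18 had no H3K9me3 island in any library and 2 had one in all 22. Of the 17 members with 10% to 50%, 14 had none and 1 had one in all. Of the 32 members with 50% to 90%, 8 had none and 18 had one in all. Of the 133 members with at least 90%, 8 had none and 72 had one in all, and their median coverage was 16.9% (quartiles 4.81% and 33.4%). A total of 42 members (20.3%) were under 50% unique, against 2.42% of all protein-coding genes, 17 Vmn2r genes and 3 Olfr genes. Vmn2r genes differed in this, since 66.7% of the 3 genes under 10% and 92.9% of the 14 genes at 10% to 50% had an island in all 22 libraries and 0% had none. Of all protein-coding genes, 70.3% of the 209 under 10% and 26.4% of the 295 at 10% to 50% had none. The part of uniqueness in the absence of islands was not tested, nor was the treatment of reads that fit several places.

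The 8 members with no H3K9me3 island in any library despite at least 90% unique sequence were Vmn1r188, Vmn1r191, Vmn1r200, Vmn1r211, Vmn1r212, Vmn1r222 and 1 of the genes named Vmn1r216 on chromosome 13, and Vmn1r15 on chromosome 6. The opposite case was Vmn1r135 (chr7:21832351-21833274) and Vmn1r163 (chr7:23055540-23056463). In these windows 0% of the sampled 150-base sequences were unique in the assembly, yet H3K9me3 islands covered 20.6% and 20.7% of them, and H3K36me3 islands the same shares. Both marks were listed over both genes in 22 of 22 libraries, with H3K9me3 reads 1.60-fold and 1.62-fold the scaled input. The mice were of strain DBA/2J and the assembly is of another strain, so the number of copies in these mice may differ from that in the assembly, which was not tested.

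H3K36me3 islands were fewer over the members. They lay over 16 members (7.73%) in all 22 libraries, close to the 7.22% of all protein-coding genes, and 68 members (32.9%) had none in any library, against 23.8% of all genes. Leaving out male ethanol 4, the library with the fewest H3K36me3 islands, raised the 16 to 23. The count was 0 with islands at an FDR of at most 0.01 or 1e-05, 0 over gene bodies alone and 64 with 20 kb on either side. Their median coverage of the members was 5.32% (range 2.92% to 11.5%), against 2.87% for all genes, 6.20% for Vmn2r and 3.71% for Olfr genes. ChIP reads were 1.23-fold the scaled input (1.11 to 1.58), less than the 1.78-fold of H3K9me3. H3K36me3 islands covered 0.131% of coding exons, 3.03% of introns and untranslated exons, 5.84% of the 5 kb upstream and 8.83% of the 5 kb downstream.

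The H3K36me3 islands were mostly found where H3K9me3 islands of the same pool were found. A median of 85.7% of the H3K36me3 island length in member windows lay under an H3K9me3 island of the same pool (range 78.3% to 93.2% over the 22 pools). For all protein-coding genes the median was 44.1% (24.7% to 69.6%), for Vmn2r genes 89.9% and for Olfr genes 79.9%. The range of the members lay above that of all genes in full. Across the 207 members, median coverage by the marks had a Spearman rho of 0.72, and 0.63 over the 133 members with at least 90% unique sequence. Both marks were measured on the same pools, and genes of an array are not independent points.

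Vmn1r238 and Vmn1r2 had the highest H3K36me3 levels. Vmn1r238 was at 3.23 (range 1.52 to 6.29), with 31.2% of its window covered, and Vmn1r2 was at 3.15 (1.61 to 4.93), with 36.9%. Vmn1r235 (2.84), Vmn1r167 (2.37) and Vmn1r48 (2.27) came next. Of these, Vmn1r2, Vmn1r235 and Vmn1r238 were also the highest 3 members for H3K9me3. The lowest of the 16 members with an H3K36me3 island in all 22 libraries were Vmn1r30 at 0.579 (range 0.366 to 1.81), Vmn1r18 at 0.711, Vmn1r6 at 0.797, Vmn1r173 at 1.06 and Vmn1r60 at 1.17. Vmn1r60 and Vmn1r173 had H3K9me3 levels of 3.13 and 2.64, so among these 16 members high H3K9me3 did not always go with the higher H3K36me3 levels. Over all 207 members the upper quartile of the H3K36me3 level was 0.527, below the levels of both genes.

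By group, H3K9me3 islands covered 20.9% ± 0.646 (SD, n = 5) of the members' windows in male water pools, 21.2% ± 3.45 (SD, n = 6) in male ethanol pools, 16.6% ± 3.17 (SD, n = 5) in female water pools and 19.2% ± 0.689 (SD, n = 6) in female ethanol pools. The male groups overlapped, and the range of the female water pools (12.4% to 20.9%) spanned that of the female ethanol pools (18.3% to 20.0%). Olfr coverage was 9.36% in female water and 11.3% in female ethanol pools and Vmn2r coverage 22.6% and 27.0%, so the mean of the female water pools was the lower one in all 3 families. The number of members with an H3K9me3 island was 132 ± 2.45, 135 ± 7.53, 122 ± 9.26 and 134 ± 3.43 in the same order of groups. The share of all protein-coding genes with an island moved alike, at 23.7%, 24.6%, 21.8% and 23.9%, so the lower mean of the female water pools was not particular to the receptor genes.

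H3K36me3 coverage of the members was 5.05% ± 0.526 (SD, n = 5) in male water, 7.23% ± 2.80 (SD, n = 6) in male ethanol, 5.38% ± 1.90 (SD, n = 5) in female water and 5.79% ± 1.88 (SD, n = 6) in female ethanol pools. The male ethanol pools ran from 3.26% to 11.5% and took in the whole range of the male water pools (4.12% to 5.35%). The Vmn2r genes had the same order in males, 5.71% and 8.46%. The mean number of members with an H3K36me3 island was 70.2 in male water and 82.8 in male ethanol pools. The share of all protein-coding genes with such an island went the other way, at 39.5% and 27.9% (means). Window length covered over all genes overlapped between the groups, at 2.60% to 3.31% in male water and 1.72% to 3.69% in male ethanol pools. Coverage of the members went with island reads at both ends, and island reads themselves rise with the length called. The 4 libraries with the most H3K36me3 island reads (4.67 M to 4.803 M) had the 4 highest coverages, 8.23% to 11.5%, and they were male ethanol 2 and 3, female ethanol 2 and female water 3. The 2 libraries with the fewest islands and island reads, male ethanol 4 and female water 4, had the 2 lowest, 3.26% and 2.92%. Between these ends the number of islands did not order the libraries, since female ethanol 1 listed the most, 61911, and covered 4.68%. Island reads did not order them either. Male ethanol 1 held 2.41 M and covered 7.10%, and female water 2 held 4.54 M and covered 5.30%. The part of depth in the differences between groups was not tested.

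**Figure D4:**
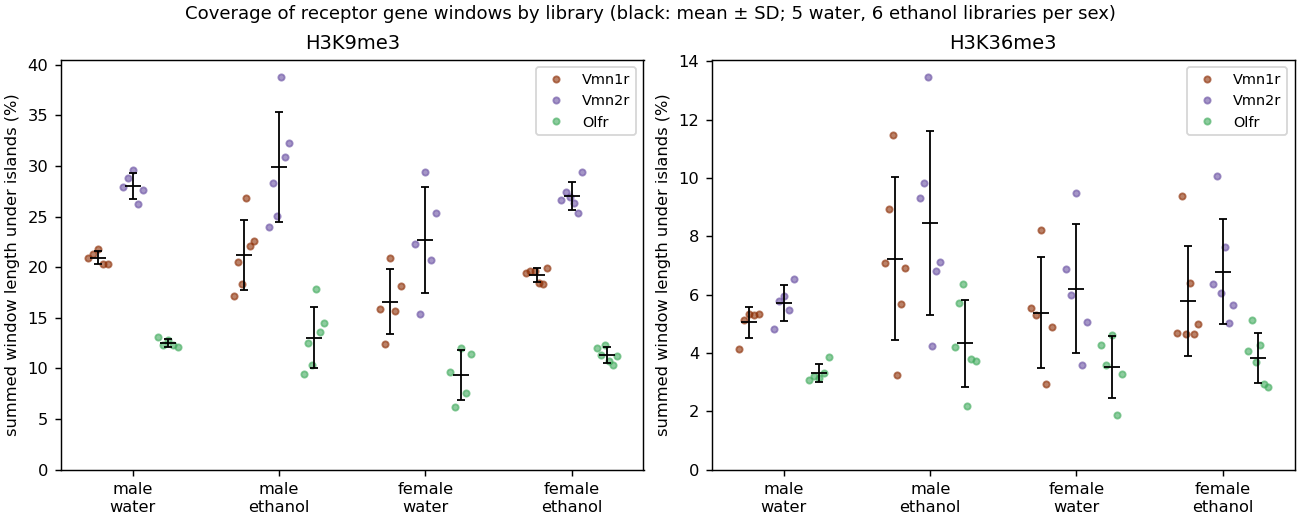
Share of summed window length under H3K9me3 (left) and H3K36me3 (right) islands, in percent, for Vmn1r, Vmn2r and Olfr genes in each of 22 libraries per mark; points are libraries and black lines mean ± SD of 5 water or 6 ethanol pools per sex. Vmn2r lies above Vmn1r and Vmn1r above Olfr in each library, and the treatment groups overlap.

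The study asked whether binge ethanol in adolescence changed H3K9me3, and it set H3K36me3 changes beside the result. Both marks were compared here. ChIP reads in the islands of each window were compared with edgeR over all genes that had an island in every library of the comparison, and a call is an unadjusted p of at most 0.05. After adjustment over all genes tested, 0% of genes were called in any of the 6 comparisons of ethanol with water or in the interaction, and 0.0358% (1 gene, not a member) between the sexes. DESeq2 called 0 members after adjustment in every comparison, as did a limma model of ChIP over input. Leaving out any 1 library also gave 0. No tested member had groups without overlap in the 7 comparisons of 2 groups. Of all genes tested, the share without overlap was 0.242% in males and 0.274% in females for H3K9me3, 1.49% and 0.191% for H3K36me3, 0% over both sexes for either mark and 0.0358% between the sexes. Many members could not be tested, since only those with islands in all libraries of a comparison entered.

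In males, 6 of 112 tested members were called for H3K9me3, 2 higher and 4 lower with ethanol, beside 2.84% of the 3312 genes tested. The median log2 fold change was 0.02 over the members and 0.0033 over all genes. Vmn1r193 on chromosome 13 had the smallest p. Normalised read counts are given as CPM, per M window reads of the genes tested in the comparison, with TMM factors. The CPM of a gene can therefore differ a little between comparisons. For Vmn1r193 they were 54.0, 60.3, 20.2, 49.9 and 46.0 in water pools 1 to 5, and 19.3, 22.4, 28.7, 38.2, 21.8 and 26.7 in the ethanol pools in turn. All ethanol pools were below 4 of the 5 water pools, and water pool 3 was among the ethanol pools. The log2 fold change was -0.81 ± 0.27 (SE; edgeR unadjusted p = 0.00947, adjusted p = 0.9997). With windows of 20 kb on either side it was 0.14, and with ChIP over input it was -0.033; neither was called.

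The other named members of the male H3K9me3 comparison changed less or rested on single libraries. Vmn1r74 was 126 ± 27.6 CPM in water and 161 ± 18.5 CPM in ethanol pools (log2 fold change 0.36 ± 0.15, unadjusted p = 0.0266), and the call was lost without male water 2, male water 3 or male ethanol 6. Vmn1r25, which has the lowest level of the 93 members with an island in all 22 libraries, was 15.8 ± 9.72 CPM in water and 7.70 ± 5.12 CPM in ethanol pools (-1.07 ± 0.45, unadjusted p = 0.0313). Without male water 1 its log2 fold change was -0.64 and the call was lost, as it was without male ethanol 2, 3, 4 or 6. Its direction turned with 20 kb on either side (0.10) and with ChIP over input (0.20). Vmn1r6 was 111 ± 16.7 CPM in water and 85.4 ± 18.4 CPM in ethanol pools (-0.38 ± 0.16, unadjusted p = 0.0345), a call lost on leaving out any of 7 of the 11 libraries. It was -0.11 with 20 kb on either side and -0.067 with ChIP over input. Vmn1r68 was 292 ± 16.7 CPM in water and 328 ± 29.3 CPM in ethanol pools (0.17 ± 0.08, unadjusted p = 0.0401), a call lost on leaving out any of 6 libraries. Vmn1r74 was 0.20 with 20 kb and 0.13 with ChIP over input, Vmn1r68 was 0.091 and 0.047, and none of these 4 members was called in either. The adjusted p was 0.9997 for all of these.

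In females, 0 of 94 tested members were called for H3K9me3 by edgeR, beside 4.34% of the 2925 genes tested. DESeq2 called 0 members, beside 5.20% of all genes, and the limma model of ChIP over input called 7, beside 5.61% of all genes. The smallest p was that of Vmn1r76, at 72.0 ± 17.5 CPM in water and 93.9 ± 22.3 CPM in ethanol pools (log2 fold change 0.38 ± 0.20, unadjusted p = 0.0785). Vmn1r225, Vmn1r38 and Vmn1r73 had log2 fold changes of 0.31, 0.47 and 0.25, and Vmn1r21 of -0.28. The median over the 94 members was 0.06, with 60 of them above 0, and the median over all genes was -0.0012. Leaving out female water 3 or female water 4 gave 5 called members, beside 7.07% and 4.71% of all genes.

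Over both sexes, 1 of 93 tested members was called for H3K9me3, beside 3.72% of the 2792 genes tested. This was Vmn1r6, with 112 ± 25.2 CPM in the 10 water pools and 88.3 ± 17.6 CPM in the 12 ethanol pools (log2 fold change -0.34 ± 0.13, edgeR unadjusted p = 0.0129, adjusted p = 0.992). It was called on leaving out any 1 of the 22 libraries, and it was -0.16 with 20 kb on either side and -0.016 with ChIP over input, where it was not called. Vmn1r226 (0.44 ± 0.22), Vmn1r58 (0.18 ± 0.09), Vmn1r87 (0.15 ± 0.08) and Vmn1r229 (0.38 ± 0.20) were next and were not called. The number of called members was 9 of 95 without female water 4, beside 4.17% of all genes. Male and female pools also enter the comparisons within each sex, so these are not separate lines of evidence.

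For H3K36me3 in males, 1 of 21 tested members was called, beside 11.4% of the 1742 genes tested. Vmn1r87 had 102, 40.7, 42.1, 49.3 and 83.8 CPM in water pools 1 to 5 and 138, 123, 161, 46.5, 87.5 and 130 CPM in ethanol pools 1 to 6. Ethanol pool 4 lay among the lowest water pools and the groups overlapped. The log2 fold change was 0.86 ± 0.34 (unadjusted p = 0.0234, adjusted p = 0.336). The call was lost without male water 2, 3 or 4 or male ethanol 3, and the difference was 0.30 with 20 kb on either side and -0.12 with ChIP over input, called in neither. Vmn1r60 (0.58), Vmn1r47 (0.54) and Vmn1r26 (0.40) were higher and Vmn1r4 (-0.77) lower on this scale without a call. The median over the 21 members was 0.18 and 17 of them were above 0, beside a median of 0.02 over all genes. Leaving out male ethanol 5 gave 3 called members, beside 18.6% of all genes.

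For H3K36me3 in females, 2 of 25 tested members were called, both higher with ethanol, beside 4.15% of the 2095 genes tested. Vmn1r238 had 45.5, 62.8, 88.0, 49.3 and 49.0 CPM in water pools 1 to 5 and 110, 144, 74.7, 87.3, 74.7 and 117 CPM in ethanol pools 1 to 6. Only water pool 3 reached into the ethanol range. The log2 fold change was 0.78 ± 0.27 (edgeR unadjusted p = 0.0113, adjusted p = 0.996), it was called on leaving out any 1 of the 11 libraries, and with ChIP over input it was 0.36 and still called. With 20 kb on either side it was 0.32 and the call was lost. In the same mark, male pools had H3K36me3 levels for Vmn1r238 of 4.24 in water and 3.11 in ethanol (medians). Vmn1r30 was 22.4 ± 3.03 CPM in water and 32.4 ± 6.91 CPM in ethanol pools (0.53 ± 0.25, unadjusted p = 0.0491). That call was lost on leaving out any of 8 libraries, and the difference turned to -0.23 with 20 kb on either side and to -0.080 with ChIP over input. Vmn1r60 (-0.58), Vmn1r56 (0.36) and Vmn1r88 (0.44) followed without a call.

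Over both sexes, 0 of 16 tested members were called for H3K36me3 by edgeR, beside 9.25% of the 1503 genes tested. DESeq2 called 0, beside 10.4% of all genes, and the limma model of ChIP over input called 1, beside 8.98%. Vmn1r87 had the smallest p (log2 fold change 0.49 ± 0.35, unadjusted p = 0.172), followed by Vmn1r30 (0.26), Vmn1r84 (0.25), Vmn1r47 (0.17) and Vmn1r6 (0.17). The median over the 16 members was 0.10, beside 0.01 over all genes.

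**Figure D5:**
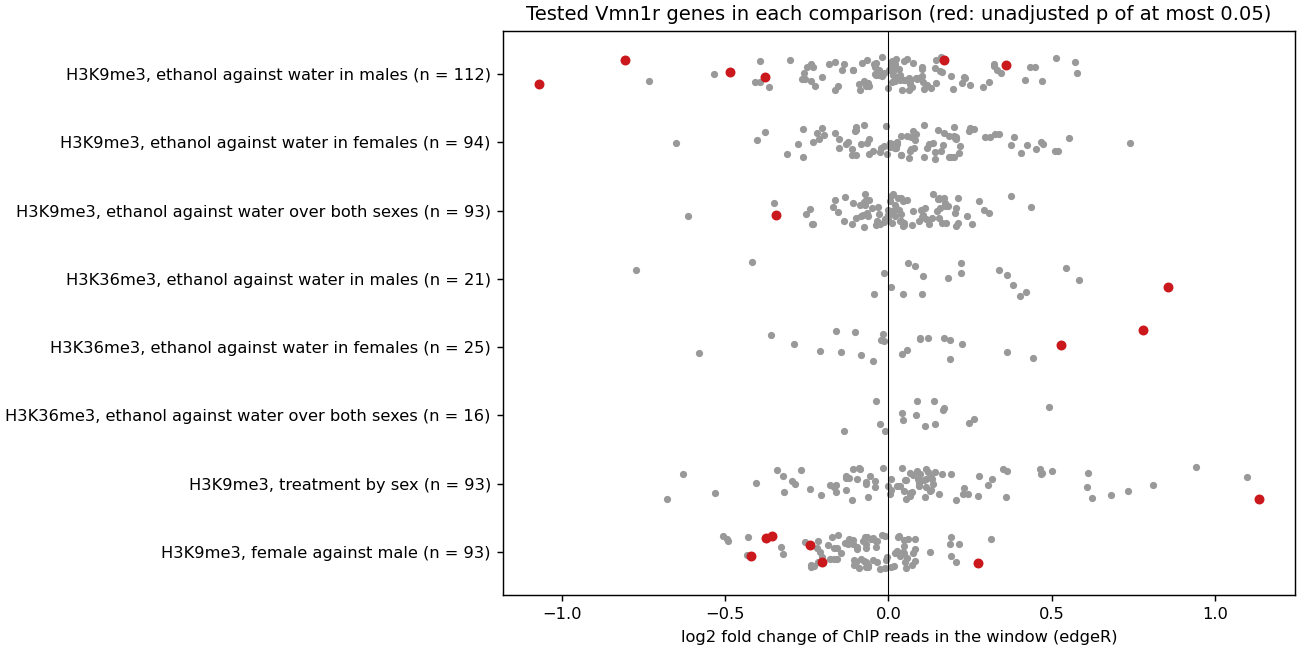
Log2 fold change of island ChIP reads (edgeR) for each tested Vmn1r gene in the 8 comparisons, with 1 point per gene and the number tested in the row label; red points have an unadjusted p of at most 0.05. Most points lie near 0, and the called members number 0 to 6 in each row.

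The interaction of treatment and sex was tested for H3K9me3 with all 22 libraries. It was called for 1 of 93 members, beside 3.65% of the 2792 genes tested. This was Vmn1r193, in which the log2 fold change with ethanol in females exceeded that in males by 1.13 ± 0.36 (edgeR unadjusted p = 0.00398, adjusted p = 0.999). Its means were 46.8 ± 15.7 CPM in male water, 26.5 ± 6.87 CPM in male ethanol, 34.7 ± 9.89 CPM in female water and 43.6 ± 9.63 CPM in female ethanol pools. It was called on leaving out any 1 of the 22 libraries. The difference was 0.26 with 20 kb on either side and 0.045 with ChIP over input, and was called in neither. Vmn1r237 (0.61), Vmn1r23 (-0.30), Vmn1r74 (-0.41) and Vmn1r235 (-0.32) followed without a call.

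Between the sexes, with treatment in the model, 6 of 93 tested members were called for H3K9me3, 1 higher and 5 lower in females, beside 7.66% of the 2792 genes tested. Vmn1r53 (chr6:90223317-90224438) was 76.8 ± 8.72 CPM in males (n = 11) and 59.2 ± 11.1 CPM in females (n = 11), a log2 fold change of -0.38 ± 0.11 (edgeR unadjusted p = 0.00162, adjusted p = 0.252). Male pools ranged from 64.1 to 91.6 CPM and female pools from 42.7 to 75.8 CPM, so they overlapped. Vmn1r163, of the pair with 0% unique sequence, was 30.5 ± 3.44 CPM in males and 37.0 ± 5.49 CPM in females (0.28 ± 0.11, unadjusted p = 0.0161). Vmn1r18 (-0.42), Vmn1r88 (-0.24) and Vmn1r58 (-0.20) were lower in females. None of these 5 was called with 20 kb on either side or with ChIP over input. Vmn1r53 was -0.071 with 20 kb and -0.10 with ChIP over input, and Vmn1r163 was 0.18 and 0.015. Vmn1r18 was -0.11 and -0.020, and Vmn1r88 was -0.10 and -0.094. Vmn1r58 was -0.038 with 20 kb and turned to 0.046 with ChIP over input and to 0.0058 with islands at an FDR of at most 1e-05. The median over the 93 members was -0.07, and over all genes it was 0.0018. Leaving out female water 3 gave 11 called members, beside 8.65% of all genes. Without TMM normalisation, on total island reads, the median of all tested genes was -0.18 and that of the members -0.25, and 34.0% of all genes were called. Under that scaling 47 of 93 members were called, all lower in females.

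No call was kept under every alternative. Of the 15 calls on named members in the 8 comparisons, 0 were kept with 20 kb on either side of the gene and 1, that of Vmn1r238, with the limma model of ChIP over input, in which both the measure and the test differ. DESeq2 kept 14. The part of input reads and of listed island length in the calls was not tested.

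The vomeronasal signalling list also holds receptor-choice genes and genes, such as Gnao1, that are used with other receptors. The share of the list with no H3K9me3 island in any library was close to that of all genes. Of 21 genes with the 20 symbols of the list, 2 had an H3K9me3 island in all 22 libraries (9.52%, against 13.4% of all genes). These were Gnao1, which encodes the G protein subunit used with Vmn2r receptors, and Ano2, a calcium-activated chloride channel. Their coverage was 1.30% and 1.70%, and ChIP reads in these islands were 0.781-fold the scaled input at Gnao1 and 1.48-fold at Ano2. Another 12, among them Gnai2, Trpc2, Omp and Lhx2, had none in any library (57.1%, against 60.1% of all genes). For H3K36me3, 3 of the 21 had none in any library (14.3%, against 23.8% of all genes). H3K36me3 islands were listed over Gnai2 in 9 libraries, over Trpc2 in 7 and over Omp in 1. For H3K9me3, the signalling list had a median coverage of 0.751% beside 19.8% for the receptors. Of 16 heterochromatin genes, Setdb2, a histone methyltransferase gene, had a listed H3K9me3 island in all 22 libraries, with ChIP reads 0.879-fold the scaled input. Of the others, 12 had none, a share above the 60.1% of all genes, including Setdb1, Trim28 and Cbx5. For H3K36me3, 2 of the 16 had none and their coverage was 3.69%, against 2.87% for all genes. From 1 to 4 signalling genes and 0 to 2 heterochromatin genes could be tested in a comparison. None was called by edgeR in any of the 8 comparisons, and the smallest unadjusted p of the signalling genes was 0.125.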

How the data were processed

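H3K9me3 and H3K36me3 ChIP-seq was performed on 22 PFC pools of 3 DBA/2J mice, with an input for each pool. Per the study's methods for H3K9me3, reads were trimmed with cutadapt, aligned with Bowtie2 (v2.4.1) to GRCm38/mm10, and kept when they mapped to a single place outside blacklisted regions; those of H3K36me3 were not given in the sources used here. The authors called islands per library against its input with SICER (window 200 bp, gap 400 bp for H3K9me3 and, from the file names, 600 bp for H3K36me3) and deposited ChIP and input read counts, p-values, FDR and fold over input for each island. The deposited p-values served only for FDR alternatives, and the deposited fold ratio only to obtain the scaling constant of a library.

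Islands were assigned to windows of the gene body and 5 kb on either side, with their counts shared by overlap length. Reads outside islands are not in the files, so a window without an island has no count, and a count rises with the length called. Genes with an island in every library of a comparison were fitted with edgeR (v4.0.16) quasi-likelihood tests with TMM normalisation in R (v4.3.3), within each sex, over both sexes with sex in the model, and, for H3K9me3, with the interaction. The p threshold was 0.05 and adjustment was by Benjamini-Hochberg over all genes tested. The fits were tested on simulated data. Alternatives were DESeq2 (v1.42.0), limma (v3.58.1) on log2 ChIP over input with a pseudocount of 1, other windows, scalings, filters and FDR limits, merged loci, a replicate block, and leaving out each library. Repeat masking and unique 150-base sequences (1 in 16 sampled) came from the reference assembly, which is not of strain DBA/2J. For each mark and comparison the 5 members of smallest p were named, with the 5 highest and 5 lowest members by level and the ends of each cluster. The members and lists were chosen with earlier results of these data known. Pools are separate animals. Input libraries themselves were not used here beyond the counts in the island lists.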

Additional observations from a re-analysis of the deposited data

Results flagged for a closer look

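Over 64 groups of libraries examined for a single library far from the rest, 3 were found, and chance gives about 1 in 20 groups. H3K36me3 islands covered 4.12% of the members' windows in male water 1, the lowest of the 5 male water pools and apart from the others. In male ethanol 4, 46 members had an H3K36me3 island, the fewest of the 6 male ethanol pools; this library also had the fewest H3K36me3 islands and island reads of all 22 libraries. H3K36me3 islands covered 9.39% of the members' windows in female ethanol 2, the highest of the 6 female ethanol pools.

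For H3K9me3 at Vmn1r193 the interaction test of edgeR gave a log2 difference of 1.13 between females and males (unadjusted p = 0.00398, adjusted p = 0.999). It was the 1 member called of 93 tested, beside 3.65% of all genes, and so does not stand out from the background of calls. The difference was 0.26 with 20 kb on either side and 0.045 with ChIP over input, and was called in neither.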

How the results depend on the processing

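Island lists hold only reads inside islands, so depth and calling set what can be seen, and a window without an island is not shown to lack the mark. Coverage of the members by H3K9me3 was 15.3% with islands at an FDR of 1e-05, 15.6% over gene bodies and 25.7% with 20 kb on either side (19.8% in the report), with levels of 0.740, 0.791 and 1.31. H3K36me3 coverage was 1.54% at an FDR of 0.01, 0.243% at 1e-05, 2.65% over gene bodies and 8.51% with 20 kb, with levels of 0.131, 0.0237, 0.208 and 0.667. Leaving out 1 library gave ranges of 19.6% to 20.0% and 5.30% to 5.34%.

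The numbers of called members are given in the order H3K9me3 in males, females, both sexes, H3K36me3 in males, females, both sexes, interaction and sex, where they were 6, 0, 1, 1, 2, 0, 1 and 6. With 20 kb on either side they were 6, 9, 11, 10, 1, 5, 7 and 11 of 158, 146, 145, 83, 75, 64, 145 and 145 tested, beside 3.02%, 4.95%, 4.64%, 11.3%, 4.28%, 9.61%, 3.54% and 8.26% of all genes. With ChIP over input they were 4, 7, 10, 1, 3, 1, 5 and 8 of 112, 94, 93, 21, 25, 16, 93 and 93, beside 5.68%, 5.61%, 6.84%, 10.6%, 5.97%, 8.98%, 4.66% and 5.66%. DESeq2 on the same genes gave 6, 0, 2, 1, 1, 0, 1 and 8, beside 3.41% to 13.03% of all genes. Over gene bodies they were 1, 2 and 1, 0 for H3K36me3 in males, 2 and 4, of 42, 29, 29, 3, 29 and 29 tested, beside 2.83% to 12.6% of all genes, and with an island required in at least 0.5 of the libraries 4, 0, 3, 2, 0, 1, 2 and 6, beside 0.528% to 4.89%. At an FDR of 0.01 they were 3, 1, 2, 0 for H3K36me3 in males, 1 and 1, of 85, 55, 50, 1, 50 and 50 tested, beside 2.38% to 10.6%. At 1e-05 the H3K9me3 counts were 0, 0, 3, 0 and 1 of 57, 23, 22, 22 and 22 tested, beside 1.85% to 5.74%. No member could be tested for H3K36me3 in females or both sexes over gene bodies or at an FDR of 0.01, nor in any H3K36me3 comparison at 1e-05. With overlapping member windows merged into 1 unit, H3K36me3 in males gave 2 of 20 tested, beside 11.5% of all genes. Without TMM on aligned reads the H3K9me3 counts were 3, 3, 7, 1 and 17, beside 2.11%, 4.96%, 4.55%, 2.15% and 10.8% of all genes, and on total island reads H3K36me3 in females gave 1 (4.73%) and sex 47 (34.0%). Leaving out 1 library gave 4 to 7, 0 to 5, 1 to 9, 0 to 3, 1 to 2, 0 to 1, 1 to 4 and 4 to 11; the 5 in females came without female water 3 or 4, the 9 without female water 4, the 3 without male ethanol 5, the 4 in the interaction without female water 1 or 3 (4 of 93 tested, beside 4.09% and 5.39% of all genes), and the 11 without female water 3. The cause of these shifts was not tested.

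With the replicate number as a block the counts were 7, 2, 1, 0, 1, 0, 4 and 7, beside 2.51% to 10.2% of all genes; same-numbered pools correlated at -0.37 to 0.08, and 1 of 20 matched best with its own number, so the numbers do not pair the pools.

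Signs turned with 20 kb on either side for Vmn1r193 (0.14) and Vmn1r25 (0.10) in males, Vmn1r30 for H3K36me3 in females (-0.23) and both sexes (-0.053), Vmn1r47 (-0.010) and, in the interaction, Vmn1r237 (-0.0727). With ChIP over input they turned for Vmn1r25 (0.20), Vmn1r38 (-0.10), Vmn1r21 (0.033), Vmn1r87 in males (-0.12) and both sexes (-0.032), Vmn1r30 (-0.080), Vmn1r60 in females (0.17), Vmn1r237 (-0.12) and Vmn1r58 between the sexes (0.046). At an FDR of 1e-05 Vmn1r58 was -0.036 over both sexes and 0.0058 between the sexes. Vmn1r6 for H3K36me3 over both sexes ran from -0.0015 to 0.24 on leaving out 1 library. Some members had no value at stricter FDR limits or over gene bodies, where an island was missing in a library.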
